A study of Mus musculus with 6 samples.

Results

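The spread of gene expression was described among 3 clones of (+)/(+) iPSCs, mouse induced pluripotent stem cells that had received the inhibitor mixture 3i both while they were reprogrammed and while they were maintained. The members are the probe sets selected on their measured values, those with a mean signal above 500 over the 3 arrays. They number 9868 of the 45037 non-control probe sets, or 21.9%, and cover 5922 genes of the 18193 that the array annotation gives as the only gene of some probe set. The clones came from embryonic fibroblasts of Nanog-GFP-IRES-Puro transgenic mice, which were infected with retroviruses that carry Oct3/4, Sox2, Klf4 and c-Myc, with dsRed as a sign of transgene silencing. All 3 clones were kept on SNL feeder cells in serum with LIF and 3i, and each gave 1 array, numbered here 4, 5 and 6 as in their titles. The 3 clones reprogrammed without 3i were not used.

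The components of 3i are CHIR99021, an inhibitor of GSK3, PD184352, an inhibitor of MEK, and SU5402, an inhibitor of FGF receptors. Blocking MEK and FGF receptors lowers the differentiation signal that runs through ERK, and blocking GSK3 stabilises β-catenin, which relieves repression of pluripotency genes by Tcf7l1. Pluripotent cells held in this way are called naive and resemble the inner cell mass of the blastocyst. An iPSC clone descends from a picked colony, and clones can differ in transgene insertions, in chromosome content and in how far the marks of the fibroblast were erased.

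Signals are MAS 5.0 values on a linear scale, and each of the 3 arrays has a mean of 500 once the highest and lowest 2% of probe sets are left out. The spread of a probe set is its highest minus its lowest clone on the scale log2(signal + 16), so that a spread of 1 is a 2-fold range. There is 1 group and 1 array per clone, so no test was possible and every value is a description. Differences between clones, between their cultures and between their arrays cannot be told apart. In these bulk samples, fewer cells of a type and less RNA per cell cannot be told apart either. The arrays were alike in their signs of RNA integrity, with 3′ to 5′ ratios of 0.821 to 0.866 for Gapdh and 1.56 to 1.77 for Actb. Their median signals were 64.1, 70.2 and 67.6 in clones 4, 5 and 6.

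The label of the cells was checked against marker genes. Nanog, a transcription factor of the naive state, had signals of 15744, 16347 and 15986 in clones 4, 5 and 6, with a mean of 16026 ± 304 (SD, n = 3). Pou5f1, which encodes Oct3/4, stood at 9046, 8254 and 8556. Sox2, its partner on DNA, stood at 14016, 16017 and 15667. Dppa5a, an RNA-binding protein of early embryos, had 33294, 28122 and 31212. None of these 4 genes had a spread above 0.25. Clone 4 was lowest in Nanog and Sox2 and highest in Pou5f1 and Dppa5a. Other pluripotency markers were less even. Utf1 had 869, 621 and 706 with a spread of 0.47, and Tfcp2l1 had 2929, 3920 and 3856 with a spread of 0.42. Zfp42 had 4553, 3893 and 3999 with a spread of 0.22. Klf2, Klf4 and Esrrb, given below, had spreads of 0.09, 0.25 and 0.14.

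Counts of members in the lists for other states are read beside the 5922 member genes among all 18193. Of the primed list 3 of 13 measured genes were, the transcription factor Sox4 and the methyltransferases Dnmt3a and Dnmt3b, with mean signals of 1548, 2413 and 3563. Fgf5, a growth factor of the primed epiblast, had signals of 4.91, 5.06 and 6.96, far under the median of each array. The primed markers Pou3f1 and Otx2 were not members either but lay above that median. Pou3f1 had 228, 286 and 276, and Otx2 had 225, 164 and 210. None of the 12 measured genes of the mesoderm and primitive streak list was a member. Of the 19 measured neural genes Stmn2, a regulator of microtubules, was the 1 member, with the nearly equal signals 8076, 8158 and 8156. Of the 18 measured trophectoderm genes 3 were members, Tfap2c, a transcription factor also of germ cells, with a mean signal of 3402, Krt18 and Igfbp3. Of the 19 measured endoderm genes 3 were members, the matrix genes Sparc, with a mean of 2611, Lamb1 and Col4a1. Myc was not a member, at 224, 153 and 180.5.

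Fibroblast genes were followed because feeder cells lay under the cultures. Of 39 measured genes of the fibroblast and feeder list 17 were members, beside 5922 of all 18193 genes. None of the 17 had a spread above 1, against 0.692% of all member genes. The summed signal of all 39 was 50454, 52964 and 53941 in clones 4, 5 and 6. Among the defining genes, Col1a1, the main fibrillar collagen chain, had 44.2, 45.3 and 37.3, and Twist1, a mesenchymal transcription factor, had 94.0, 133 and 92.0. Dcn had 251, 303 and 347, Pdgfrb 214, 251 and 263, Thy1 183, 211 and 187, and Col3a1 140, 184 and 230. These lay above the median of each array. Postn had 108, 135 and 135, and Lum 0.829, 21.3 and 53.1. From Dcn to Lum all were lowest in clone 4. Prrx1, at 93.2, 69.8 and 101, was lowest in clone 5, and Col1a1 and Twist1 in clone 6. Col1a2, another chain of that collagen, had the widest spread of the 17 members on their brightest probe sets, with 468, 694 and 558. Fn1 of this list had a spread of 0.31 on its brightest probe set and 0.71 on its other member probe set, with clone 4 lowest on both. The sum was lowest in clone 4, and its part in the differences of clone 4 was not tested.

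Most members differed little between clones. The median spread was 0.23 and its quartiles were 0.14 and 0.35. The 95th percentile was 0.64 and the 99th was 0.94. A spread above 1 was reached by 72 member probe sets (0.73%), and by 41 of the 5922 genes when each was taken by its brightest probe set (0.692%). A spread above 1.5-fold, a lower bar added after the data were seen, was reached by 383 genes (6.47%). Of the 72 probe sets 39 were above 500 in each clone. Without clone 4 the clones left differed by more than 1 in 8 probe sets, and without clone 5 in 36.

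The spread narrowed with signal. When the members were ordered by mean signal into 5 bins of equal size, the lowest bin ran from 500.1 to 744. There the median spread was 0.28 and 10.2% of probe sets exceeded 1.5-fold. In the highest bin, from 4330 to 43338, the median was 0.20 and 3.09% exceeded it. The spike-in control probe sets, which report RNA added in the laboratory and not made by the cells, give a level to read these against. In 18 of them above the same signal the median spread was 0.18 and the range 0.10 to 0.39. Of the members, 1980 (20.1%) had a spread above the widest spike-in and 35.1% had one under the spike-in median.

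**Figure D1:**
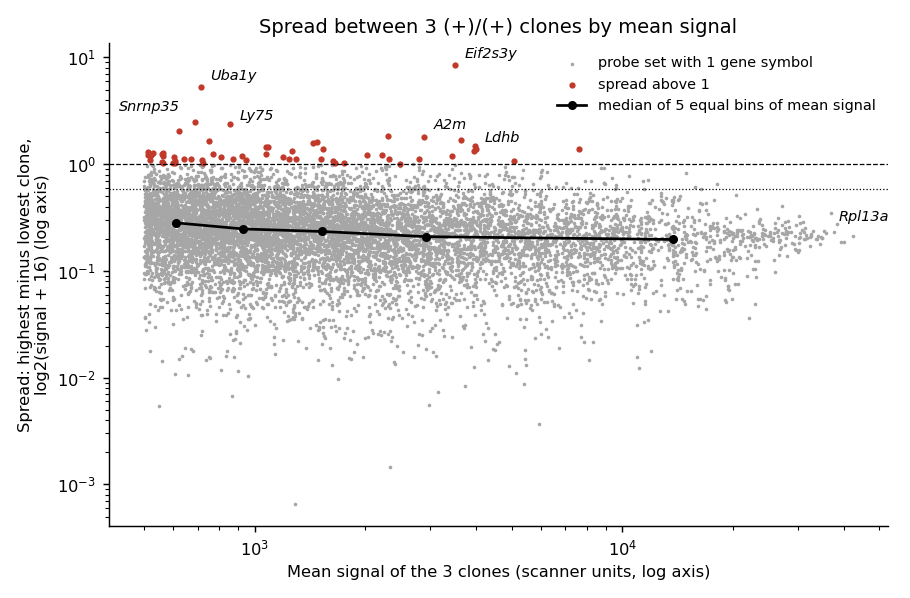
Spread between the 3 clones (vertical, log2 units on a log axis) against mean signal (horizontal, scanner units on a log axis) for each of the 9030 member probe sets with 1 gene symbol. Red points have a spread above 1 (dashed line), the dotted line is at 1.5-fold, and the black line joins the medians of 5 equal bins of all members, which go from 0.28 to 0.20.

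The 5 smallest spreads among genes with a mean signal above 2000 were those of Prpsap2, Taf10, Sirt1, Tmem33 and Rnf7. Prpsap2, which binds the enzyme of phosphoribosyl pyrophosphate synthesis, had signals of 2328, 2331 and 2329. Taf10, a subunit of the TFIID and SAGA transcription complexes, had 5933, 5918 and 5918. Sirt1, an NAD-dependent deacetylase, had 5371, 5404 and 5397. Tmem33 is a membrane protein of the endoplasmic reticulum, and Rnf7 is a RING protein of cullin ubiquitin ligases. Signals of different probe sets do not rank transcripts, but the 8 brightest were all of ribosomal protein genes (Rpl13a, Rps18, Rps20, Rps29, Rps3a1, Rps28, Rps7 and Rps10), with spreads of 0.19 to 0.28.

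Clones 5 and 6 were the closest pair. The median absolute difference over the members was 0.11 between clones 5 and 6, 0.15 between clones 4 and 6 and 0.17 between clones 4 and 5. A difference above 1 was found in 8, 36 and 59 probe sets respectively. Pearson's r across the members was 0.988, 0.983 and 0.976 in the same order, and Spearman's rho was 0.987, 0.972 and 0.969. These values run over probe sets of the same 3 arrays, which are not independent replicates.

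Clone 4 was at an end of most wide spreads. Over all member genes clone 4 was highest in 38.6% and lowest in 39.2%, clone 5 in 34.2% and 30.2%, and clone 6 in 27.2% and 30.6%. Among the 41 genes with a spread above 1, clone 4 was highest or lowest in 38, with 14 highest and 24 lowest. A clone was counted as apart when its gap to the nearest other clone exceeded 1. Clone 4 was apart below in 17 probe sets and 9 genes, and apart above in 6 probe sets and 3 genes. Clone 5 was apart below in 7 probe sets and 3 genes, clone 6 was apart below in 1 of each, and neither was apart above in any.

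Between clones 5 and 6, the 8 probe sets that differed by more than 1 are few enough to give. Clone 5 was the lower in 7 of them, which were those of the Y-linked Eif2s3y and Uba1y, that of Erdr1 and 4 probe sets unnamed here. Tcl1b3, of the Tcl1 family of Akt coactivators, was the 1 gene lower in clone 6, with signals of 2155, 1459 and 703 in clones 4, 5 and 6.

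The largest spreads of all belonged to genes of the Y chromosome. Eif2s3y, a subunit of the translation initiation factor eIF2, had signals of 4695 and 5831 in clones 4 and 6 and 0.866 in clone 5. Uba1y, a ubiquitin-activating enzyme, had 849 and 1280.3 in those clones against 18.2 in clone 5. Kdm5d, a histone H3K4 demethylase, and Uty, related to an H3K27 demethylase, were not members and showed the same order, with 311, 5.66 and 432 for Kdm5d and 485, 14.2 and 537 for Uty. In all 4 genes clone 5 lay far below the median signal of its array, while clones 4 and 6 lay above it.

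The X chromosome had no difference of that size. Xist, the RNA that coats an inactive X, had 111, 69.5 and 80.2 on its brightest probe set. The median of clone 5 minus the mean of the others was −0.03 over 208 member genes of the X. Over the 18 autosomes other than chromosome 8 it lay between −0.002 and 0.04. Clone 5 was highest in 24.5% of the X genes, against 34.2% of all member genes. Eif2s3x, the X-linked partner of Eif2s3y, had 9687, 8625 and 9162, and Kdm5c, the partner of Kdm5d, had 641, 843 and 758. Erdr1, a gene placed on the X and listed as a pseudogene, had 8648, 3894 and 10278 and was lowest in clone 5. The sex of the embryo behind each clone is not given in the sources used here.

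Beside the Y genes, the largest spreads set clone 4 against the others in both directions. Snrnp35, a protein of the minor spliceosome, had a signal of 1501 in clone 4 against 252 and 306 in clones 5 and 6. Lefty2, a secreted inhibitor of Nodal, had 2054 against 815 and 933, with a mean of 1267 ± 684 (SD, n = 3). Trh, the precursor of thyrotropin-releasing hormone, had 1198 against 499 and 621. In these 3 genes clones 5 and 6 lay close together and clone 4 was above them.

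More of the widest spreads had clone 4 at the low end. Ly75, an endocytic receptor known from dendritic cells, had 271 in clone 4, 1474 in clone 5 and 828 in clone 6. A2m, a secreted protease inhibitor, had 1107 against 3634 and 3939, with a mean of 2893 ± 1554 (SD, n = 3). Ephx2, the soluble epoxide hydrolase, had 324 against 893 and 1039. For A2m and Ephx2 clones 5 and 6 were close, while for Ly75 the 3 clones were spaced out.

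Further genes among the 20 largest spreads were Cog7, a subunit of a Golgi tethering complex, at 581, 1617 and 1055, and Pde8a, a cAMP phosphodiesterase, at 265, 599.9 and 676. Glrx, a glutaredoxin that reduces glutathionylated proteins, had 295, 664 and 717. Cyct, the cytochrome c of testis, had 1253, 2446 and 2947. D13Ertd608e and BC147527, both on chromosome 13, had 751, 2307 and 1372, and 278, 618 and 694. Elobl had 1253, 2951 and 1872, and Zdhhc12 had 272, 651 and 643. All of these were lowest in clone 4. Col4a1, a basement membrane collagen, was set apart by its value in clone 5, at 337, 798 and 407.

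**Figure D2:**
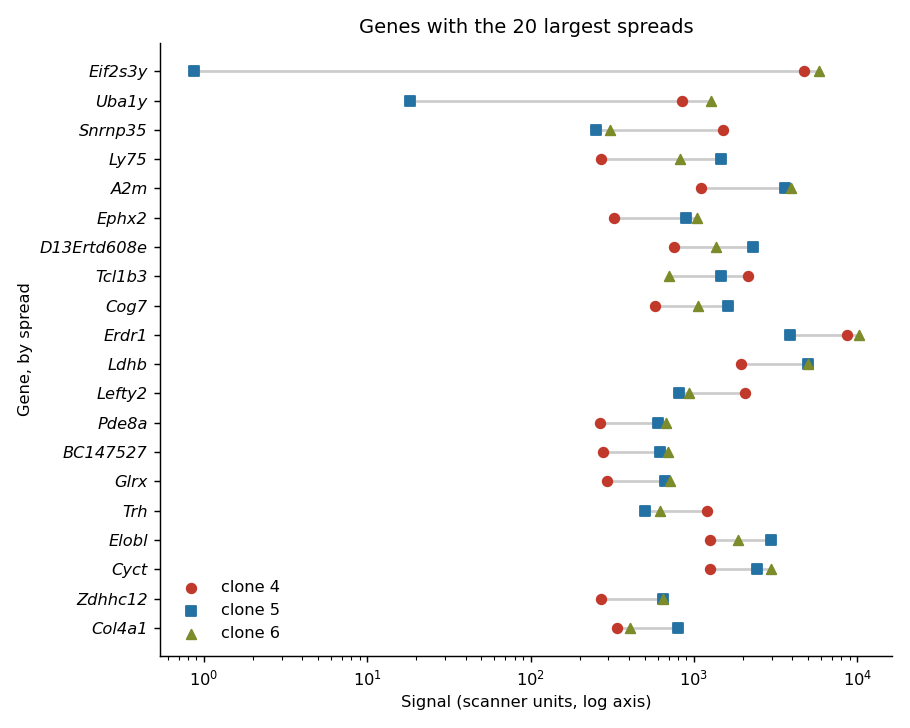
Signal of each clone (horizontal, scanner units on a log axis) for the 20 member genes with the largest spreads, ordered by spread, with a grey line from the lowest to the highest clone. Clone 5 lies at 0.866 and 18.2 in the Y-linked Eif2s3y and Uba1y, and clone 4 is at an end of the line in all the others but Erdr1.

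Ldhb, which encodes lactate dehydrogenase B, was measured by 4 member probe sets. The enzyme favours the conversion of lactate to pyruvate. Its signals in clones 4, 5 and 6 were 1932, 5022 and 5030.1 on the brightest probe set, with a mean of 3995 ± 1786 (SD, n = 3), and 1989, 5036 and 4813 on another. The remaining probe sets had 1879, 4805 and 5239, and 1469, 4792 and 4651. Clone 4 was lowest on all 4, with spreads of 1.33 to 1.69, and the order of clones 5 and 6 changed between them. The gene lies at chr6:142490249-142507957 of GRCm38.p6.

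Its promoter, as RefSeq lists it on that build, is shown because Ldhb varied on every member probe set. The window runs from 250 bases before to 50 after the first listed start, at chr6:142507908-142508207 on the minus strand. It is written on the strand of the gene with each CG dinucleotide, the site of DNA methylation, in capitals, and holds 17 of them.
Ldhb: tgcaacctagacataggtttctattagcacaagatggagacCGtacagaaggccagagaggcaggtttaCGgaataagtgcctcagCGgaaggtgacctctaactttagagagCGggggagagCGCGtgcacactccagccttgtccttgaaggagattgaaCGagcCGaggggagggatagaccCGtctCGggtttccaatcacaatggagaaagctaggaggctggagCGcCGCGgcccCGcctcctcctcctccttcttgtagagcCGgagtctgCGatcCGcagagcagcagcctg

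The germline and the 2-cell lists had the widest median spreads among the gene lists with over 3 members, at 0.66 and 0.64. Which of them was wider changed with the processing, with 0.60 and 0.70 after quantile normalization. Germ cell genes are silenced in most somatic cells by promoter methylation and by the PRC1.6 complex, whose E2f6 and Mga subunits bind the E2F motif TCCCGC and the E-box CACGTG, and naive cells express part of them. Of 29 measured germline genes 14 were members, 8 of them past 1.5-fold, against 6.47% of all member genes, and 1 past 2-fold. The median spread of all member genes was 0.23. Clone 4 was lowest in 11 of the 14, against 39.2% of all member genes, and the median of clone 4 minus the mean of the others was −0.47. This median was −0.37 after scaling the arrays to a common median and −0.44 after quantile normalization. With a mean signal above 250 it was −0.33, and above 1000 it was −0.41.

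Dazl, an RNA-binding protein needed for germ cell development, had signals of 2815, 4867 and 4536 in clones 4, 5 and 6. Its second member probe set gave the same order, with 1824, 3008 and 2902. Stra8, which is induced by retinoic acid at the entry into meiosis, had 1990.4, 3638 and 2972. Sohlh2, a helix-loop-helix factor of spermatogonia and oocytes, had 584, 1263 and 987. Hormad1, a protein of the meiotic chromosome axis, had 485, 734 and 956. In all 4 genes clone 4 was lowest, and the highest clone was 5 except in Hormad1.

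Among the other members, Sycp3, of the synaptonemal complex, had 1478, 2345 and 2490.4, and Mael, of the piRNA pathway, had 752, 1166 and 1141. Tex15, also of the piRNA pathway and on chromosome 8, ran the other way with 2640 in clone 4 and 1386 and 1987 in clones 5 and 6. Tex19.1, which restrains transposons in germ cells, was also highest in clone 4, but only by a spread of 0.13. Rhox5, a homeobox gene of the X, had 8607, 9653 and 10246. Sycp3, Mael and Tex19.1 were chosen for naming after their values were seen.

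The promoters of Dazl, Stra8, Sohlh2 and Hormad1 are given in the same form, as those of the 4 widest germline spreads with an entry in the table. Tex15, with a spread of 0.92 and the opposite direction, has no entry there. That of Dazl is chr17:50293571-50293870 on the minus strand and holds 28 CG. That of Stra8 is chr6:34920698-34920997 on the plus strand with 10, at a start inside the gene, whose listed span begins at 34920163. That of Sohlh2 is chr3:55181794-55182093 on the plus strand with 17, and that of Hormad1 is chr3:95559427-95559726 on the plus strand with 24.
Dazl: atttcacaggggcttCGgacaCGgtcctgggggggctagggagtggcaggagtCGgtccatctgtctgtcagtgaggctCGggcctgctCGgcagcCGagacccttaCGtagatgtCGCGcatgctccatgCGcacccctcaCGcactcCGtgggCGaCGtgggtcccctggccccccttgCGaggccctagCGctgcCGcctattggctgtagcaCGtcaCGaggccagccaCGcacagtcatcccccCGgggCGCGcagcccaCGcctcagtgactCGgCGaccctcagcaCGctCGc
Stra8: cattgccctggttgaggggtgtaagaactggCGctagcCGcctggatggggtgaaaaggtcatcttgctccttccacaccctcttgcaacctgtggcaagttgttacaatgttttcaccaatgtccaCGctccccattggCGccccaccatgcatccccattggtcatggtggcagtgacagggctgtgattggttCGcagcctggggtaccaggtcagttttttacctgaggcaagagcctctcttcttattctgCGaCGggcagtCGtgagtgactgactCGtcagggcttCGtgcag
Sohlh2: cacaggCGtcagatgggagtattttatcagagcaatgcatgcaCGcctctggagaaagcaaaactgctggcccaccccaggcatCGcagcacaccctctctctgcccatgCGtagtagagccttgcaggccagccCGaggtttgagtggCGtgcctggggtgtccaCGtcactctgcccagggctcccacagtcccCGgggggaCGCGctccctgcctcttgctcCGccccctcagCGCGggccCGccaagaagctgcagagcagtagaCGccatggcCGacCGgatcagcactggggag
Hormad1: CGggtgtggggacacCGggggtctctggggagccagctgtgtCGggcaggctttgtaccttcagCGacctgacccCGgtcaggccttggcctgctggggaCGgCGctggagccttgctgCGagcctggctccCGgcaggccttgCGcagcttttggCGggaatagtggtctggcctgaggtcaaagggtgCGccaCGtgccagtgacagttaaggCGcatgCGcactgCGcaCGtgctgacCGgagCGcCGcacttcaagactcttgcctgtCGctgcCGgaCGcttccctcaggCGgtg

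Both strands of each window were searched for the TATA box TATAAA, the E-box CACGTG and the E2F motif TCCCGC. The E-box and the E2F motif were added after the data were seen. Hormad1 held the E-box and the E2F motif, while the windows of Dazl, Stra8, Sohlh2 and Ldhb held none of the 3. Of the 14 germline members 12 had a promoter in the table, and 7 of these (58.3%) held the E-box and 7 (58.3%) the E2F motif. Among 4900 member genes with a promoter the shares were 11.98% and 38.9%, and among all 27025 genes 7.24% and 20.02%. The median number of CG was 21.5 for the germline members, 23 for all member genes and 7 for all genes.

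The variable genes as a whole had somewhat fewer CG. Among the 31 genes with a promoter and a spread above 1 the median was 17, and 4 (12.9%) held TATAAA, against 6.27% of member genes. For the 299 genes past 1.5-fold the median was 21 and the share 7.36%. A match is a stretch of letters and not a site of binding.

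The 2-cell and Zscan4 list covers genes active when the embryo first transcribes its genome, which a minority of pluripotent cells also express. Of 15 measured genes 10 were members, with a median spread of 0.64, 5 past 1.5-fold and 2 past 2-fold, against 6.47% and 0.692% of all member genes. Clone 4 was lowest in 8 and clone 5 highest in 7, against 39.2% and 34.2% of all member genes. The median of clone 4 against the others was −0.39, and it was −0.19 without clone 5 and −0.64 without clone 6. This median was −0.28 after scaling the arrays to a common median and −0.43 after quantile normalization. With a mean signal above 250 it was −0.26, and above 1000 it was −0.50. Tcstv1, of a cluster on chromosome 13, had 3587, 7582 and 4087 in clones 4, 5 and 6. Its neighbour Tcstv3 had 1092, 2173 and 1287. In both, clone 5 was highest and the other clones were close together.

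Sp110, a nuclear body protein also known from interferon responses, had 680.1, 1541 and 1356. Zfp352, a zinc finger gene of early embryos, had 670.2, 1297 and 1130.3. These were lowest in clone 4 while clones 5 and 6 were close, which differs from the order in Tcstv1 and Tcstv3. Usp17la, a ubiquitin protease of a multicopy family, had 10878, 10109 and 10286, with a spread of 0.11.

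Probe sets annotated to several genes of this class were kept apart from the list. The one for Zscan4a, Zscan4c, Zscan4d and Zscan4f, zinc finger genes linked to telomere maintenance, had 29643, 26079 and 27494 with a spread of 0.18. The one that Eif1a shares with related loci had 17833, 17851 and 19020 with a spread of 0.09. The one for Gm13057, Gm13040 and Gm13043 had 14992, 15824 and 15674 with a spread of 0.08. These were even between clones. Others varied more and were lowest in clone 4. The one for Gm13871, Gm11757 and Gm11758 had 3369, 5553 and 5302 with a spread of 0.72. That of Gm428 and related loci had 2663, 4005 and 3693 with a spread of 0.59, and that of Gm8300, Gm2022 and Gm5662 had 6513, 7654 and 9027 with a spread of 0.47.

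Naive pluripotency genes leaned low in clone 4 by smaller steps. Of 16 members 3 passed 1.5-fold, against 6.47% of all member genes, and none passed 2-fold. The median spread was 0.32, and clone 4 was lowest in 12, against 39.2% of all member genes. Its median against the others was −0.24, and −0.14 after scaling the arrays to a common median. Dppa3, a maternal factor that guards DNA methylation in the zygote, had 2439, 3270.5 and 4584. Prdm14, a regulator that represses Dnmt3b and FGF signalling, had 897, 1429 and 1240.4. Tbx3, a T-box factor of the LIF network, had 3108, 4748 and 4052. Dppa3 was highest in clone 6, and Prdm14 and Tbx3 were highest in clone 5.

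Other naive genes varied less than these 3. Klf4 had 12675, 14741 and 15049, with a spread of 0.25 and clone 4 again lowest. Its relative Klf2 had 5812, 5666 and 5459, and the orphan receptor Esrrb had 2299, 2329 and 2106. The 13 members of the core list had a median spread of 0.19 and none passed 1.5-fold, against 6.47% of all member genes. Clone 4 was highest in 8 of them, against 38.6% of all member genes. Within that list L1td1, an RNA-binding protein derived from a transposon, had 9716, 6990.1 and 7577.

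DNA methylation genes leaned high in clone 4. Clone 4 was highest in 8 of 11 members, against 38.6% of all member genes. The median spread was 0.31 and 1 gene passed 1.5-fold, against 6.47% of all member genes. The median of clone 4 against the others was 0.14, and it was 0.06 without clone 6 and 0.10 without clone 5. It was 0.24 after scaling to a common median, 0.07 with a mean signal above 250 and 0.28 above 1000. Dnmt3a, a de novo methyltransferase, had 3274, 1907 and 2057 and was highest in clone 4 on each of its 3 member probe sets. The spreads of those probe sets ran from 0.17 to 0.77. Dnmt3b, its relative, had 4221, 3302 and 3166, and Dnmt3l, the cofactor of both, had 2383, 1784 and 1679. On the brightest probe sets of these 3 genes clone 4 was highest and the others were close. The other member probe set of Dnmt3b had 1455, 886 and 1121, with clone 4 highest and a spread of 0.71.

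The maintenance enzyme and the oxidases differed by smaller steps. Dnmt1 had 2931, 2839 and 2737 and its partner Uhrf1 had 5516, 5348 and 5161, with spreads of 0.10 each and clone 4 again highest. Tet1, which oxidises 5-methylcytosine, had 5958, 5733 and 4792 in the same order. Its relative Tet2 had 1785, 2168 and 1819 with clone 5 highest.

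Genes of hypoxia and glycolysis were mostly lower in clone 4. Of 21 members 7 passed 1.5-fold, against 6.47% of all member genes, and none passed 2-fold. Clone 4 was lowest in 15 and highest in 1, against 39.2% and 38.6% of all member genes. Its median against the others was −0.24, but −0.14 once array medians were equalised and −0.13 in the members above a mean of 1000. Bnip3, a mitophagy receptor induced by HIF1, had 6649, 10299.8 and 11089. Ndrg1, another gene induced by hypoxia, had 710.1, 1109 and 1284, and P4ha1, a prolyl hydroxylase of collagen, had 577, 995 and 897. Hk1, a hexokinase, had 597, 1016 and 1008. Each of these had clone 4 lowest and the other clones near to each other.

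Several main glycolytic genes varied less. Ldha, which favours lactate formation, had 21146, 21056 and 23086, and Pkm, the pyruvate kinase, had 6712, 7202 and 7258. Slc2a3, a glucose transporter, had 23273, 22492 and 22908. On these probe sets the spreads were 0.13, 0.11 and 0.05. The 3 other member probe sets of Slc2a3 had spreads of 0.08 to 0.48, and none had the same clone highest or lowest.

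Nodal and BMP genes had a median spread of 0.49 over 10 members. Of these 3 passed 1.5-fold and Lefty2 alone passed 2-fold, against 6.47% and 0.692% of all member genes. The ligand Nodal had 2563, 3127 and 2901 with clone 4 lowest, and its coreceptor Tdgf1 had 24422, 23774 and 27554. Lefty1, the paralogue of Lefty2, had 1171, 856 and 1078. Id1, a BMP target that blocks helix-loop-helix factors, had 784, 591 and 432, and its relative Id3 had 1947, 1304 and 1331. Smad7, an inhibitory Smad, had 1400.5, 1282 and 757 on its brightest probe set, while its other member probe set had a spread of 0.16. Clone 4 was highest in 6 of the 10 members and lowest in 3, against 38.6% and 39.2% of all member genes. Its median against the others was 0.25, and 0.36 after scaling the arrays to a common median. The members of this list did not share 1 order of clones.

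**Figure D3:**
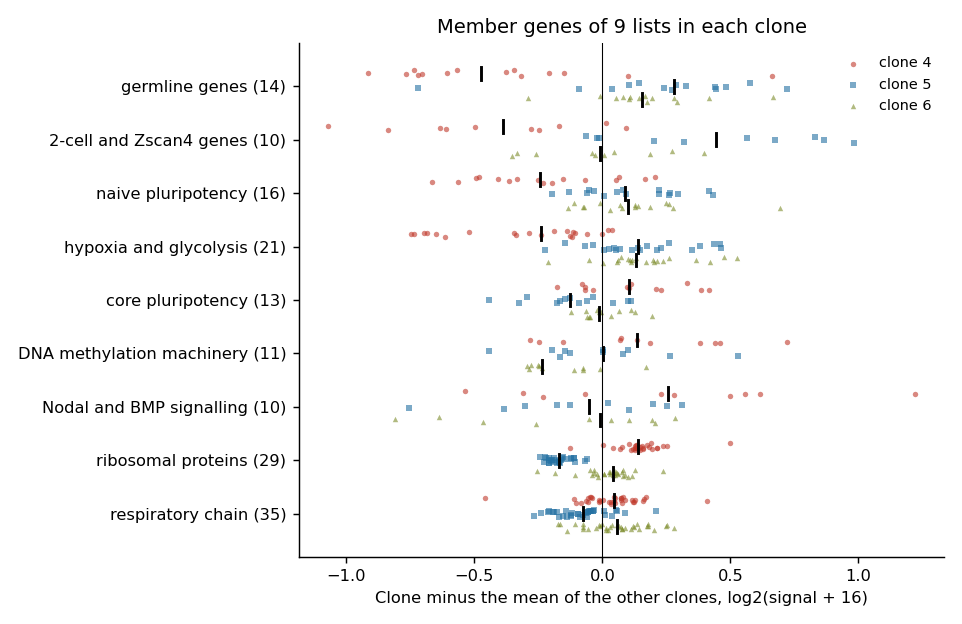
Clone minus the mean of the other clones (horizontal, log2 units) for the member genes of 9 lists, 1 point per gene and clone, with the number of members in parentheses and a black bar at each median. In the germline, 2-cell, naive and hypoxia lists the bar of clone 4 lies between −0.47 and −0.24, and in the ribosomal protein list the bars of clones 4 and 5 lie at 0.14 and −0.17.

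Genes of large complexes differed together by small steps. Of 29 ribosomal protein members none passed 1.5-fold, against 6.47% of all member genes, and the median spread was 0.21. Yet clone 4 was highest in 24 and clone 5 lowest in 26, against 38.6% and 30.2% of all member genes. The median against the other clones was 0.14 for clone 4 and −0.17 for clone 5. Clone 4 was also highest in 13 of the 18 spike-in probe sets, and the step of clone 4 in the ribosomal proteins was 0.24 once array medians were equalised, 0.01 after quantile normalization, 0.07 without clone 5 and 0.21 without clone 6. The 35 respiratory chain members had a median spread of 0.15, with 0 past 1.5-fold, against 6.47% of all member genes.

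Other lists were small or near the share of all member genes past 1.5-fold, which was 6.47%. Of 29 cell cycle members 1 passed 1.5-fold, Cdkn1b, the inhibitor p27, at 573, 873 and 788. Clone 4 was highest in 11 of the 29 and lowest in 11, against 38.6% and 39.2% of all member genes. Of 15 p53 target members 1 passed, Polk, a translesion DNA polymerase, at 497, 811 and 666. Of 11 imprinted members 2 passed, Phlda2, a restraint on placental growth, at 2012, 1116 and 1435, and Grb10, an adaptor that restrains insulin signalling, at 3696, 2168 and 2252. Of 17 sterol synthesis and 13 fatty acid synthesis members none passed. Of 3 endoderm members 2 passed, Col4a1 and the laminin chain Lamb1, with Lamb1 at 1343, 2018 and 1309.7. Col4a1, with a mean of 514, was above 500 in clone 5 alone, so it was a member through the clone in which it was high. All 3 members were highest in clone 5, and the summed signal of the 19 measured endoderm genes was 5931, 8268 and 6181. Of primitive endoderm markers that were not members, Gata6 had 193, 312 and 202, and Sox17 80.0, 179 and 134. Gata4 had 48.5, 79.5 and 57.7, and Sox7 32.8, 47.3 and 37.0. These too were highest in clone 5, while Dab2, at 68.3, 88.2 and 103, was highest in clone 6.

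Genes of chromosome 8 were mostly higher in clone 4. Over its 331 member genes the median of clone 4 minus the middle clone was 0.39, and minus the mean of the others it was 0.45, while the 18 other autosomes lay between −0.05 and 0.01 in the latter measure. Clone 4 was highest in 94.3% of these genes against 38.6% of all member genes, and the median spread of the chromosome was 0.51. Of its genes 120 (36.3%) passed 1.5-fold and 7 passed 2-fold, against 6.47% and 0.692% of all member genes. Copy number was not analysed here.

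The 4 largest shifts of clone 4 on that chromosome were in Cyb5b, Psmb10, Nr2c2ap and Ciapin1. Cyb5b, a cytochrome b5 of the outer mitochondrial membrane, had 4299.5, 2134 and 1979, and Psmb10, an immunoproteasome subunit, had 878, 377 and 436. The metallothionein genes Mt1 and Mt2, whose proteins bind zinc and copper, lie there too and had 23831, 15229 and 15173, and 24902, 17475 and 18812. Of the 12 members of the metallothionein and redox list 2 passed 1.5-fold, against 6.47% of all member genes. None did once the genes of chromosome 8 were left out.

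**Figure D4:**
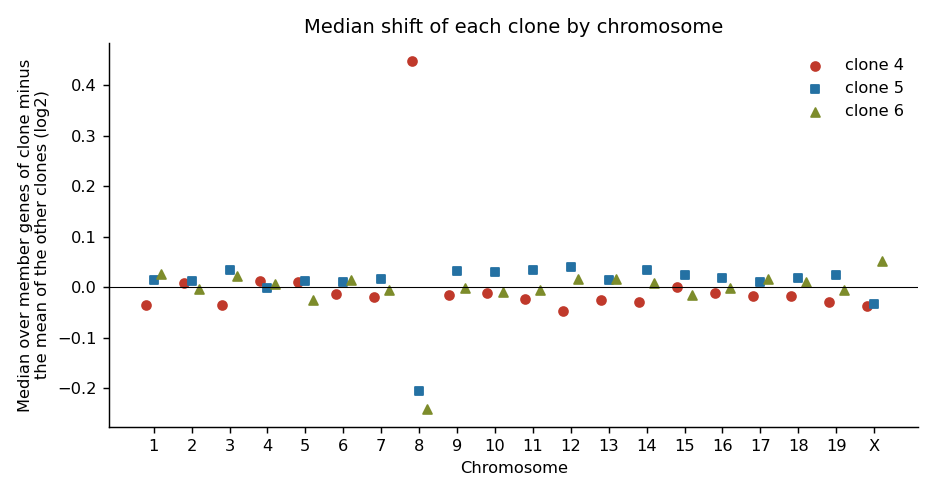
Median over the member genes of each chromosome (horizontal) of a clone minus the mean of the other clones (vertical, log2 units), 1 point per clone, with Y left out. Chromosome 8 stands at 0.45 in clone 4, and the other autosomes lie between −0.05 and 0.01 in that clone.

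The lean of clone 4 in the germline, naive and hypoxia lists was as large without chromosome 8. The median of clone 4 against the others was then −0.57 for germline genes, −0.29 for naive genes and −0.29 for hypoxia and glycolysis. Off chromosomes 8 and Y, 32 of 5589 genes (0.573%) had a spread above 1, of which clone 4 was lowest in 23 and highest in 8. Over all genes kept there, clone 4 was lowest in 41.5%, and the median spread of the probe sets was 0.22.

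Differences between clones were shared between probe sets of the same gene more often where they were large. In 2063 genes with at least 2 member probe sets, the difference of clone 4 from the others had a correlation of 0.66 across genes between the brightest and the next brightest. For clones 5 and 6 it was 0.57 and 0.49. The highest clone was the same on both probe sets in 57.6% of genes. In the 110 of these genes past 1.5-fold it was the same in 82.7%, and in the 6 past 2-fold in all 6. These correlations run across genes of the same arrays and carry no p.

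**Figure D5:**
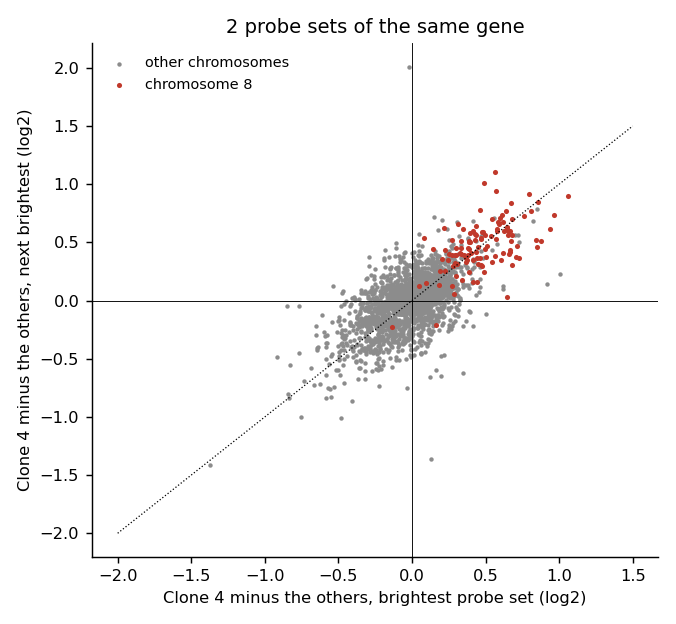
Clone 4 minus the mean of the others (log2 units) on the brightest probe set (horizontal) and the next brightest (vertical) of 2063 genes, with genes of chromosome 8 in red and equality as a dotted line. The points scatter around equality with a correlation of 0.66, and Jpt1 and Wdr70 lie more than 1 from it.

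A wide spread on 1 probe set was not always shared. Jpt1, chosen here after its values were seen, had 1066, 3901 and 1965 in clones 4, 5 and 6 on a probe set with the suffix _x_at, which marks probes that can bind other transcripts. Its other member probe sets had spreads of 0.14 and 0.20. Of 909 member probe sets with this suffix 17 (1.87%) had a spread above 1, against 45 of 6154 (0.731%) with the plain suffix _at. Of the 72 probe sets with a spread above 1, 14 had no gene or several. In 3 of these clone 5 alone was far under the median of its array, the first with 2623, 1.78 and 3014.

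Probe sets on either side of the threshold on signal were alike. Just outside it lay Frmd4b with a mean of 499.98 and signals of 425, 556 and 519, and just inside it Nudt14 with a mean of 500.09 and signals of 504, 534 and 462. Since members were chosen by their mean, a probe set can pass through 1 high clone. Of the 9868 members 9219 were above 500 in each clone.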

How the data were processed

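RNA of each clone was labelled with biotin and hybridised to a 1-colour Affymetrix Mouse Genome array with 45101 probe sets. The authors quantified the arrays with MAS 5.0 and deposited signal intensities on a linear scale, each array scaled to a mean of 500 without its highest and lowest 2%. This scaling ties the arrays to a common mean and not to a common median. Presence calls were not used here.

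The 64 control probe sets were dropped. The members, with a mean signal above 500, were put on the scale log2(signal + 16) and not normalized again. Of 9868 members, 9030 had 1 gene symbol in the array annotation, 393 several and 445 none, and 9021 matched RefSeq genes of GRCm38.p6. A gene was represented by its brightest probe set. The members and gene lists were chosen with earlier results of these data known. The genes named were drawn from the 20 largest spreads, the 4 largest gaps of each clone, the 8 brightest and the 5 smallest spreads. They also came from the 4 largest shifts of chromosome 8 and from up to 4 widest and 2 brightest members of each list. The reprogramming factors with Nanog and marker genes of cell states were further sources. Others were chosen after their values were seen.

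Counts used Python 3.11.15, pandas 2.3.3, numpy 2.4.6 and matplotlib 3.10.9 and were tested on simulated data. With 1 group and 1 array per clone no test was run, and the number of arrays limits the precision. Alternatives were pseudocounts of 1 and 64, median scaling, quantile normalization, other signal thresholds, the mean of probe sets, leaving out cross-matching probe sets and leaving out each clone.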

Additional observations from a re-analysis of the deposited data

How the results depend on the processing

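Most values depended little on the settings tried. The median spread was 0.26 after scaling to a common median, against 0.23, and other settings that kept all clones gave no larger move. The 72 probe sets with a spread above 1 became 130 with a mean signal above 250, 38 above 1000, 39 with more than 500 in each clone and 39 when the probe sets of a gene were averaged. The 31 probe sets with a clone apart became 51, 18, 14 and 15 under the same 4 settings. Of the 20 genes with the largest spreads, 10 were still members with a mean signal above 1000 and 9 with more than 500 in each clone. Their spreads were unchanged, and the other genes were left out by their signal. Averaging the probe sets left 5922 genes in place of 9868 probe sets. Of the 9868 members 9219 were above 500 in each clone. A signal threshold does not alter the spread of a probe set, so under those settings counts changed as probe sets entered or left the members. For averaged probe sets the cause of the change was not tested. The median spread of the 2-cell list exceeded that of the germline list after quantile normalization, with a pseudocount of 64, with a mean signal above 1000, with more than 500 in each clone, with averaged or without cross-matching probe sets, without chromosomes 8 and Y, and without clone 4 or clone 6.

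With each clone left out in turn, the median spread between the remaining clones was 0.11 to 0.17, the count above 1 was 8 to 59, and 4 to 18 of the 20 genes stayed above 1. Without clone 4 the count above 1 was 8 and 4 of the 20 genes stayed above 1. The shift of chromosome 8 in clone 4 was 0.22 without clone 6 and 0.23 without clone 5 against 0.39, since the median of 2 clones is their mean. A clone apart cannot be defined with 2 clones. Scaling to a common median moved the median member gene by 0.07 in clone 4 and by −0.06 in clone 5, and the median of clone 4 against the others in heat shock and ribosomal protein genes was 0.03 and 0.01 after quantile normalization against 0.14 in each. In the 10 lists followed this way no median of clone 4 changed sign in any alternative that kept it. No paired analysis was possible because there is a single group. Probe sets under 500 were left out, so genes near the background of the arrays are not covered.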
